A study of Mus musculus with 23 samples.

Results

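The comparison described here sets lungs of mice that breathed lipopolysaccharide (LPS) and received oxidized alpha1-antitrypsin (AAT) against lungs of mice that breathed clean air. Its members were chosen by their labels alone and comprise 8 of the 23 libraries in the series, 5 from LPS+oxAAT and 3 from air. All mice were male Balb/c, and each library held RNA of 1 mouse lung. The air mice (replicates 2101, 2102 and 2105) inhaled clean air and were injected with saline. The LPS+oxAAT mice (replicates 5101 to 5105) inhaled an aerosol of 0.21 mg/ml LPS for 10 min daily on 3 days. Oxidized human AAT at 4 mg/kg was injected into the peritoneum 1 h after every exposure. In both groups the lungs were collected 6 h after the last injection. The labels speak of 5 mice per group, and the 3 air libraries given were analysed here. No air group that received oxidized AAT was analysed here, so effects of the LPS exposure and of the AAT injection cannot be told apart in this comparison. The LPS group (n = 5), which inhaled the same LPS and was injected with saline, is used as a further reference below. The fit of all 23 libraries also held LPS mice given native AAT (LPS+nAAT, n = 5) or recombinant AAT (LPS+recAAT, n = 5) at 4 mg/kg.

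LPS is a cell wall component of Gram-negative bacteria. It is bound by LBP and CD14 and passed to the receptor TLR4, which switches on NF-kB and interferon regulatory factors. In the lung these lead to chemokines that draw in neutrophils and monocytes and to acute phase and antimicrobial proteins. AAT, the product of SERPINA1, is the main inhibitor of neutrophil elastase in plasma, and oxidation of a methionine in its reactive loop removes most of that activity.

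The files held 26.5 to 30.4 M gene counts per air library and 24.5 to 38.0 M per LPS+oxAAT library. Libraries within a group differed from each other by more than sampling noise, so none was treated as a repeat of another. The 5 LPS+oxAAT libraries were not alike in the ratio of mt-Nd6 to mt-Nd5 counts, and the cause was not tested. The mitochondrial gene mt-Nd6 lies on the opposite strand to its neighbour mt-Nd5, and in air its count amounted to 0.34% to 0.77% of the mt-Nd5 count. In replicates 5101 and 5102 it was 0.39% and 0.83%, but in replicates 5103, 5104 and 5105 it was 4.31%, 4.21% and 3.75%. Calls are therefore also given with the LPS+oxAAT group reduced to 5101 and 5102, from a fit of libraries whose ratio was under 2% (called the low-ratio libraries). That fit also leaves out the whole LPS+recAAT group, whose ratios were 3.39% to 4.50%.

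Defining markers of lung cells were present in every library. The summed level of 6 alveolar type 2 markers was 23114 to 31502 CPM (TMM-scaled counts relative to library size) in air and 23042 to 28394 CPM in LPS+oxAAT. The 4 club cell markers summed to 34556 to 46969 CPM in air and 32030.5 to 39532 CPM in LPS+oxAAT. Markers of heart muscle, a tissue that can be taken along with lung, varied from 63.1 to 329 CPM in air and from 17.9 to 518 CPM in LPS+oxAAT. In whole lung, fewer cells of a type and less RNA per cell cannot be told apart.

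Of 17148 genes tested with edgeR's quasi-likelihood test, 645 (3.76%) differed between LPS+oxAAT and air at a Benjamini-Hochberg adjusted p under 0.05. Of these, 466 (2.72%) were higher in LPS+oxAAT and 179 (1.04%) were lower. These shares are the background for the counts of each gene list below. Rises were also larger than falls, since 235 genes rose and 29 fell by at least 2-fold. With 5101 and 5102 as the only LPS+oxAAT libraries, 251 of 17179 genes passed (1.46%), 213 of them higher (1.24%) and 38 lower (0.221%). Both fits called 236 genes in the same direction (1.38%), 207 higher (1.21%) and 29 lower (0.169%). The CPM ranges of the 2 groups did not overlap for 1692 genes (9.87%), of which 946 (5.52%) were higher and 746 (4.35%) lower in LPS+oxAAT. Without air replicate 2105, 392 genes were called. Of 15 genes that rose by more than 4 on the log2 scale, 5 were called in both fits. The other 10, all predicted or clone-named genes, did not pass the count filter of the low-ratio fit. They were at most 0.24 CPM in 5101 and 5102 and 0.244 to 11.6 CPM in 5103 to 5105, and are not described further. Exons of 172 of the 645 genes overlap a gene on the other strand, as do those of 30.3% of all genes tested, and reads of such pairs cannot be told apart without a known strand setting. Among the called genes given with values below, these are Lemd1, Il1b, Csf2, Cxcl10, Cxcl11, Mmp12, Irak3, Gpr84, Csrnp1, Greb1, Cebpd, Zfp36, Tapbp, Bhlhe41, Napsa, Cyp2f2, Vcam1 and Fdft1. The genes named below as the largest changes were chosen among those called in both fits whose CPM ranges in the 2 groups did not overlap.

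**Figure D1:**
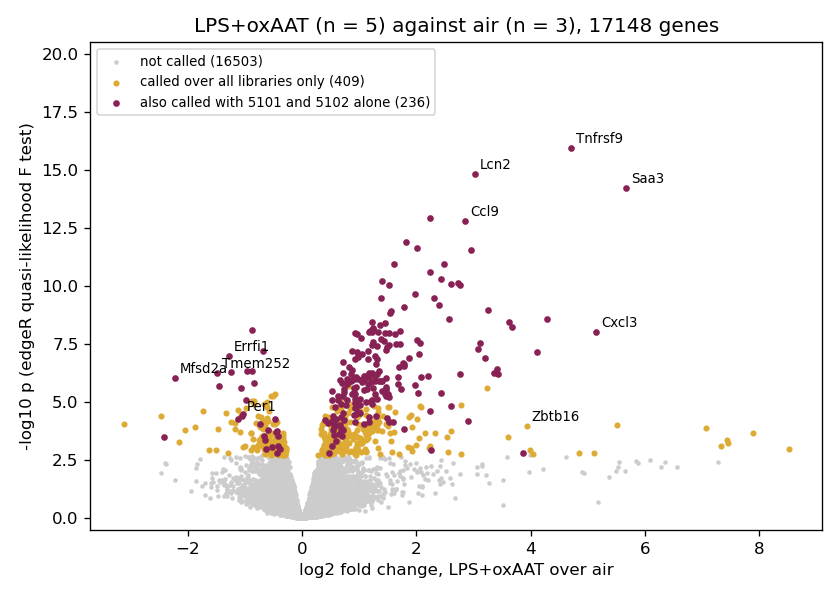
Each point is 1 of 17148 genes, with the log2 fold change of LPS+oxAAT over air on the x axis and −log10 of the unadjusted p on the y axis. Purple points are the 236 genes also called with replicates 5101 and 5102 alone, of which 207 are higher and 29 lower.

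The neutrophil chemokines and their receptor CXCR2 formed one of the lists examined, and 4 of its 9 tested members rose. They were Cxcl1, Cxcl2, Cxcl3 and Cxcl5, all ligands of CXCR2. Promoters of the first 3 lie close together on chromosome 5 and are shown because each holds a match to the NF-kB motif searched, GGGAA and CC with any 3 bases between them. Each is 300 bases from RefSeq (GRCm38.p6), from 250 bases before to 50 after the gene's start, on the plus strand, with matches on either strand in capitals and overlapping matches run together.
Cxcl1, chr5:90890995-90891294: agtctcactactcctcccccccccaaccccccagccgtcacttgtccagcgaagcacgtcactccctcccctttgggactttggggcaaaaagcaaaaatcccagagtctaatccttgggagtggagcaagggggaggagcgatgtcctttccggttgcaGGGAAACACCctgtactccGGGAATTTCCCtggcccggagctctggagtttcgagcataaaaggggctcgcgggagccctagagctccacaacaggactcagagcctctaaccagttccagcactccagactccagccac
Cxcl2, chr5:90903649-90903948: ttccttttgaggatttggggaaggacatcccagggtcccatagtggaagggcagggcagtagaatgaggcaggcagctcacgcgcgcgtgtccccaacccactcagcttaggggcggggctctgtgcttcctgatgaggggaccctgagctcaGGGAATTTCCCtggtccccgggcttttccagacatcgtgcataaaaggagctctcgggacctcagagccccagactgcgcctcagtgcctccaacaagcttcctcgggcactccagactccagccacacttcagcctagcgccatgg
Cxcl3, chr5:90785851-90786150: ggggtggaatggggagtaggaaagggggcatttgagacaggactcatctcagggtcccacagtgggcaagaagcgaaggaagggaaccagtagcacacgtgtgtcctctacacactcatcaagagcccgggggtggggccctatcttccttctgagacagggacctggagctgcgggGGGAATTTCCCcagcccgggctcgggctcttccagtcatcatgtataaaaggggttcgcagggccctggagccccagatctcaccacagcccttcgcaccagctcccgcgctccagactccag
Over all 32851 RefSeq windows of this length, 5.78% held such a match. A match describes the letters only and says nothing on whether a factor was bound.

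Cxcl3 stood at 1.77, 1.1 and 0.718 CPM in the air libraries and at 39.2, 16.3, 46.2, 43.8 and 66.9 CPM in LPS+oxAAT replicates 5101 to 5105. Every LPS+oxAAT library lay above every air library, with 5102 lowest and 5105 highest. The mean was 35.5-fold higher, a log2 fold change of 5.14 ± 0.55 (standard error, SE; adjusted p = 3.83e-06). Cxcl5, which lung epithelium is known to make, was 0.902, 0.486 and 0.642 CPM in air against 11.3, 5.35, 8.95, 14.7 and 18.2 CPM in LPS+oxAAT. The rise was 4.11 ± 0.52 on the log2 scale (adjusted p = 1.67e-05). The spread among LPS+oxAAT libraries was wide for both genes, but their ranges did not reach those of air. Cxcl1 rose from 3.08 ± 0.999 CPM (SD, n = 3) to 12.7 ± 2.38 CPM (SD, n = 5), a log2 fold change of 2.05 ± 0.27 (adjusted p = 2.03e-05). Cxcl2 rose from 2.07 ± 0.197 to 8.11 ± 3.29 CPM, a log2 fold change of 1.97 ± 0.32 (adjusted p = 0.00023). The 4 ligands were also called with 5101 and 5102 alone. The other tested members, Cxcl15, Ppbp, Pf4, Cxcr2 and Csf3r, were not called.

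Among 14 CC chemokines, which draw mainly monocytes, dendritic cells and lymphocytes, 11 rose and none fell. Their median log2 fold change was 1.58, against −0.01 over all 17148 genes. Ccl9, a ligand of CCR1, stood at 26.1, 32.8 and 39 CPM in air and 188, 208, 292, 244 and 244 CPM in LPS+oxAAT. The LPS+oxAAT libraries lay within a narrow band far above air, and the log2 fold change was 2.85 ± 0.20 (adjusted p = 5.42e-10). Ccl2, the main ligand of the monocyte receptor CCR2, rose by 2.77 ± 0.42 on the log2 scale (adjusted p = 0.000105), and Ccl3 rose by 2.20 ± 0.33 (adjusted p = 0.000122). Ccl17 and Ccl22, ligands of CCR4, rose by 1.69 ± 0.24 (adjusted p = 6.31e-05) and 1.33 ± 0.16 (adjusted p = 3.95e-06). With 5101 and 5102 alone 7 of the 14 passed, namely Ccl2, Ccl3, Ccl6, Ccl9, Ccl17, Ccl20 and Ccl22.

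Of 18 inflammatory cytokines and growth factors, 13 were tested and 5 rose. Il1rn, the natural antagonist of the interleukin 1 receptor, stood at 14.1, 11.5 and 11.8 CPM in air and at 40.2, 45.5, 49.2, 45 and 40.9 CPM in LPS+oxAAT. Its log2 fold change of 1.82 ± 0.14 (adjusted p = 3.6e-09) was larger than that of Il1b, at 1.18 ± 0.23 (adjusted p = 0.00294); that difference between the genes was not tested. Tnf rose by 1.51 ± 0.26 (adjusted p = 0.000491). The growth factors Csf2 and Csf1, which act on macrophages and granulocytes, rose by 1.44 ± 0.25 (adjusted p = 0.000473) and 0.72 ± 0.10 (adjusted p = 3.8e-05). All 5 were also called with 5101 and 5102 alone. Il6 had only 17 counts over the 3 air libraries, stood at 0.159 to 0.461 CPM in LPS+oxAAT and was not called (log2 fold change 0.65 ± 0.50, adjusted p = 0.625). The median of the 13 members was 0.72.

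Tnfrsf9 and Saa3 led the rises outside the chemokines. Saa3, a serum amyloid A made outside the liver, was 4.26, 4.02 and 6.16 CPM in air and 293, 162, 238, 295 and 228 CPM in LPS+oxAAT. The mean was 50.5-fold higher, with a log2 fold change of 5.66 ± 0.32 (adjusted p = 3.38e-11) that was 5.58 with 5101 and 5102 alone. It was the largest rise among the genes named. Tnfrsf9 encodes 4-1BB (CD137), a costimulatory receptor of activated T and NK cells that other leukocytes also make. It was 1.55, 1.4 and 0.605 CPM in air and 30.3, 27.6, 36.7, 31.4 and 29.3 CPM in LPS+oxAAT, a log2 fold change of 4.70 ± 0.24 (adjusted p = 1.87e-12). The LPS+oxAAT libraries differed little from each other. Among 16 T and NK cell markers, whose median was 0.01, only Tnfrsf9 was called, where 3.76% of all genes tested were called. Of its 2 RefSeq promoter windows, the one below (GRCm38.p6, plus strand) holds a match to this motif on either strand, in capitals.
Tnfrsf9, chr4:150927749-150928048: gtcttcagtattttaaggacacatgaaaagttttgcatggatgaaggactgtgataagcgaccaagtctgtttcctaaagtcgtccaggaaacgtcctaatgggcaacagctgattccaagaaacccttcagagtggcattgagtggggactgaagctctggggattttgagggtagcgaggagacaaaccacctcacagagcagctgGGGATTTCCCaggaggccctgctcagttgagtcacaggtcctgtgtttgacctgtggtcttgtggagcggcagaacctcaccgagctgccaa

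The remaining genes among the 12 largest rises differed in level. Lcn2, a siderophore-binding antibacterial protein, was 114, 130.0 and 175 CPM in air and 1193, 1061, 1057, 1181 and 1208 CPM in LPS+oxAAT. It rose by 3.03 ± 0.17 on the log2 scale (adjusted p = 1.23e-11), and the LPS+oxAAT libraries spread by far less than the gap to air. Acod1, whose enzyme produces the metabolite itaconate in macrophages, rose from 0.306 ± 0.0467 to 3.8 ± 0.807 CPM, a log2 fold change of 3.61 ± 0.41 (adjusted p = 2.12e-06). Klk10, a member of the kallikrein-related peptidase family, rose by 3.66 ± 0.40 (adjusted p = 3.17e-06), with 0.722 to 2.6 CPM in air and 16.4 to 26.8 CPM in LPS+oxAAT. Orm1, the acute phase protein orosomucoid, rose by 3.24 ± 0.34 (adjusted p = 7.52e-07). Lemd1, Ly6i, Sectm1b and Mab21l3 completed the 12, with log2 fold changes of 4.28, 3.41, 3.11 and 3.07. All 4 were at or below 0.681 CPM in each air library. Lemd1 had 19 counts in air in total, so its fold change is less precise than those of the abundant genes. Ly6i belongs to a family of similar genes on chromosome 15, so its reads may be shared with other members. Of the 9 genes among these 12 with a RefSeq window, 3 held the NF-kB letters in it, namely Cxcl3, Klk10 and Tnfrsf9.

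**Figure D2:**
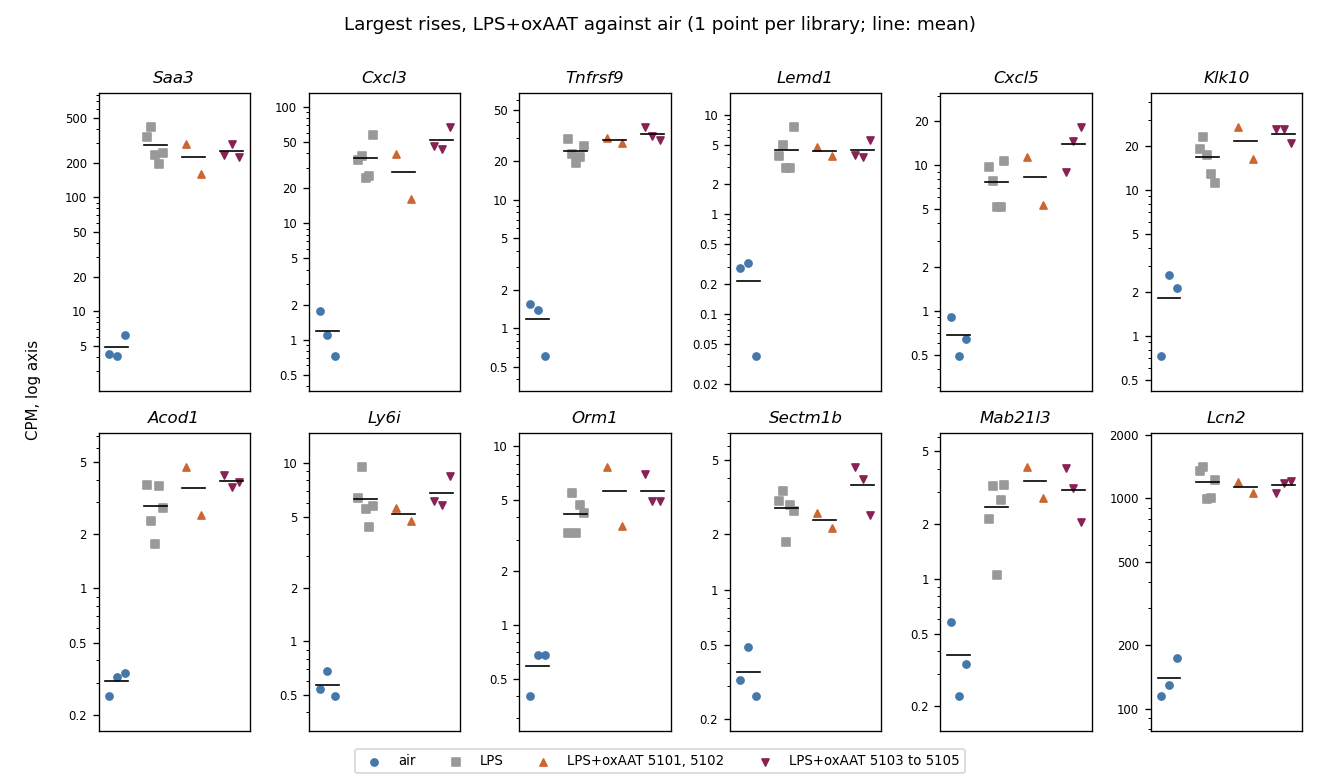
Points are the CPM of 1 library each on a log axis for the 12 largest rises, and lines are means. By the rule of choice, air lies below both sets of LPS+oxAAT libraries in each panel, as for Saa3 (4.02 to 6.16 CPM against 162 to 295 CPM). The LPS group is drawn beside them.

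Of 23 acute phase and antimicrobial genes, 13 rose and none fell, and the median was 1.21. The summed level of the list was 8607 to 10560.5 CPM in air and 15169.7 to 16517 CPM in LPS+oxAAT. Pigr, the receptor that carries IgA across epithelium, was 79.7, 142 and 74 CPM in air and 672, 339, 641, 649 and 696 CPM in LPS+oxAAT. Replicate 5102 lay between air and the other LPS+oxAAT libraries, and the log2 fold change was 2.61 ± 0.24 (adjusted p = 9.18e-08). Chil1, a chitinase-like protein, was among the most abundant of these genes and rose from 880.1 ± 96 to 2309.8 ± 88.7 CPM. This was a log2 fold change of 1.39 ± 0.13 (adjusted p = 8.17e-08). With 5101 and 5102 alone, 11 of the 23 passed.

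Of 21 proteases and protease inhibitors, classes that include elastase and AAT, 18 were tested and 5 rose. Wfdc21, a small secreted WAP domain protein, was 1.16, 2.21 and 2.76 CPM in air and 16.8, 14.1, 17, 16.5 and 14.9 CPM in LPS+oxAAT. This was a log2 fold change of 2.96 ± 0.23 (adjusted p = 5.77e-09). Mmp12, the elastase of macrophages, rose by 1.68 ± 0.25 (adjusted p = 0.000129), and Timp1, an inhibitor of metalloproteinases, rose by 1.28 ± 0.17 (adjusted p = 2.5e-05). Serpina3n, a serine protease inhibitor, rose by 1.24 ± 0.14 (adjusted p = 3.42e-06), and Slpi, an inhibitor of neutrophil elastase, by 0.78 ± 0.14 (adjusted p = 0.000765). All 5 were also called with 5101 and 5102 alone. Elane and Ctsg, the elastase and cathepsin G of neutrophils, did not pass the filter on low counts. Serpina1a, a mouse gene of AAT itself, was near 0 in both groups, at 0.289 to 0.357 CPM in air and 0.23 to 0.96 CPM in LPS+oxAAT, and was not called (adjusted p = 0.646). It has near-identical copies in the mouse, so its reads may be shared with these and its level is uncertain.

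Within the LPS receptor pathway the co-receptor rose and the receptor was not called. Of 16 genes of the TLR4 complex and its adaptors 4 rose, and the median of all 16 was 0.09. Cd14 was 25.3, 31.9 and 28.2 CPM in air and 124, 91.1, 115, 132 and 111 CPM in LPS+oxAAT, a log2 fold change of 2.01 ± 0.16 (adjusted p = 5.43e-09). Lbp, which loads LPS onto CD14, rose by 0.59 ± 0.12 (adjusted p = 0.00348), and Tlr2, a receptor of bacterial lipoproteins, by 0.66 ± 0.10 (adjusted p = 0.000161). Irak3, a kinase-like inhibitor of Toll-like receptor signalling, rose by 0.47 ± 0.11 (adjusted p = 0.0126), and the low-ratio fit did not call it (adjusted p = 0.217). Tlr4 was 31.8, 34.7 and 28.7 CPM in air and 32, 19.6, 44, 37.7 and 39.2 CPM in LPS+oxAAT. These ranges overlapped, and its fold change of 0.12 ± 0.27 (adjusted p = 0.902) was −0.29 with 5101 and 5102 alone.

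Of 16 NF-kB subunits, inhibitors and feedback genes, 6 rose, namely Nfkb2, Nfkbie, Nfkbiz, Tnip1, Tnip3 and Birc3. The rises were modest except for Tnip3, an inhibitor of NF-kB activation. It went from 1.19, 1.26 and 1.13 CPM in air to 3.92, 3.58, 4.44, 5.21 and 4.91 CPM, a log2 fold change of 1.88 ± 0.26 (adjusted p = 2.92e-05). Nfkbie, which codes for IkB epsilon, rose by 0.63 ± 0.11 (adjusted p = 0.000553). Nfkb2, Nfkbie and Tnip3 were also called with 5101 and 5102 alone, and 3 of the 16 passed without air replicate 2102.

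Markers of leukocytes moved unevenly. Of 18 tested neutrophil markers, 5 rose, and these were Clec4d, Clec4e, Il1r2, Fpr1 and Fpr2, which monocytes and macrophages are also known to make. Clec4d was 5.66, 5.97 and 6.05 CPM in air and 12.3, 14.6, 12.6, 13.2 and 13.4 CPM in LPS+oxAAT, a log2 fold change of 1.17 ± 0.14 (adjusted p = 3.83e-06). S100a8, an abundant granulocyte protein, overlapped between the groups, with 23.7 to 39.9 CPM in air and 18.4 to 30.0 CPM in LPS+oxAAT (log2 fold change −0.35 ± 0.37, adjusted p = 0.754). The 7 defining neutrophil markers summed to 202 to 255 CPM in air and 181 to 276 CPM in LPS+oxAAT, and 1 of them, Clec4d, was called.

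Monocyte and macrophage markers rose in part. Of 18 markers of monocytes and recruited macrophages, 5 rose, namely C1qa, C1qb, C1qc, Ms4a7 and Adgre1. The median of the 18 was 0.20. Adgre1, the macrophage antigen F4/80, was 22 to 27.2 CPM in air and 39.4 to 59.5 CPM in LPS+oxAAT, a log2 fold change of 1.05 ± 0.17 (adjusted p = 0.000178). The 6 defining markers of these cells summed to 135 to 188 CPM in air and 207 to 242 CPM in LPS+oxAAT, which did not overlap. The 3 of them called were C1qa, C1qb and C1qc, while Ccr2, Ly6c2 and Cx3cr1 were not called. The part of these cells in the rise of the chemokines, cytokines and complement genes was not tested. Of 16 alveolar macrophage markers 6 rose, and 3 of them (Marco, Car4 and Itgax) were called with 5101 and 5102 alone. Marco, a scavenger receptor, rose by 2.09 ± 0.32 (adjusted p = 0.00013), and Itgax, which codes for CD11c, by 1.02 ± 0.12 (adjusted p = 5.82e-06). The defining alveolar macrophage markers summed to 308 to 358 CPM in air and 319 to 492 CPM in LPS+oxAAT.

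Macrophage activation genes went both ways, with 4 of 14 higher and 2 lower. Besides Acod1, Gpr84, a receptor of medium-chain fatty acids, rose from 11 counts over the air libraries to 29 to 44 counts in each LPS+oxAAT library (log2 fold change 3.20 ± 0.44, adjusted p = 2.78e-05). Slc7a11, the cystine transporter, rose by 1.28 ± 0.22 (adjusted p = 0.000649), and Sod2, the mitochondrial superoxide dismutase, by 0.62 ± 0.12 (adjusted p = 0.00186). Nos2, the inducible nitric oxide synthase, fell from 12, 9.5 and 8.99 CPM in air to 4.68, 7.68, 6.47, 6.45 and 4.95 CPM. Its log2 fold change was −0.75 ± 0.16 (adjusted p = 0.00527), and Arg1 was the other gene that fell. With 5101 and 5102 alone, Acod1 and Gpr84 passed. Slc7a11, Sod2 and Nos2 did not, with adjusted p-values of 0.12, 0.146 and 0.209.

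Cell division genes had the highest share of called members of the 34 lists, since 23 of 25 rose and none fell. Their median log2 fold change was 1.24, and 20 of the 25 were called with 5101 and 5102 alone. Mki67, which marks cycling cells, was 14, 12.2 and 10.5 CPM in air and 34.7, 34.4, 35.2, 34.6 and 39.5 CPM in LPS+oxAAT. The LPS+oxAAT libraries agreed closely, apart from a higher 5105, and the log2 fold change was 1.54 ± 0.17 (adjusted p = 9.54e-07). Bub1b of the spindle checkpoint rose by 1.38 ± 0.14 (adjusted p = 2.84e-07), Cdk1, the mitotic kinase, by 1.24 ± 0.15 (adjusted p = 3.62e-06), and Rrm2, which makes deoxynucleotides, by 1.23 ± 0.14 (adjusted p = 2.13e-06). The summed level of the list was 130.1 to 151 CPM in air and 266 to 339 CPM in LPS+oxAAT. Which cells held this RNA was not measured.

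Complement genes rose in 10 of 17 cases, with a median of 0.66. Of the 10, C1qa, C1qb and C1qc were also counted among the macrophage markers above. C3, the central component, was 823, 747 and 511 CPM in air and 1515, 1334, 2186, 1854 and 1755 CPM in LPS+oxAAT, a log2 fold change of 1.32 ± 0.18 (adjusted p = 3.04e-05). Cfb, factor B of the alternative pathway, rose by 2.43 ± 0.41 (adjusted p = 0.000444), and C3ar1, the receptor of C3a, by 1.51 ± 0.14 (adjusted p = 9.18e-08). C1qb, C1qc, C3, Cfb and C3ar1 were also called with 5101 and 5102 alone, and 6 of the 17 passed without air replicate 2105.

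Of 17 CXCR3 ligands and interferon gamma genes, the 3 ligands alone rose. Cxcl10 was 1.37, 1.26 and 1.36 CPM in air and 5.6, 7.45, 7.13, 4.78 and 8.15 CPM in LPS+oxAAT, a log2 fold change of 2.31 ± 0.23 (adjusted p = 2.84e-07). Cxcl9 rose by 2.24 ± 0.43 (adjusted p = 0.00195), and both were called in the low-ratio fit. Cxcl11 had 3 counts over the air libraries and 7 to 19 counts in each LPS+oxAAT library, and it passed with all libraries (adjusted p = 0.0132) but not in the low-ratio fit (adjusted p = 0.24). Of 22 type I interferon genes, 6 rose with all libraries, namely Isg15, Ifit1, Ifit3, Rsad2, Cmpk2 and Zbp1. Ifit1 was 12.8, 18.2 and 13.3 CPM in air and 27.6, 30.1, 33.6, 28.1 and 61 CPM in LPS+oxAAT, where 5105 stood well above the rest. Its log2 fold change was 1.29 ± 0.26 (adjusted p = 0.00291) with all libraries and 0.98 (adjusted p = 0.0671) with 5101 and 5102 alone. None of these 6 passed in the low-ratio fit, which called Mx1 of the 22. Without air replicate 2105, 3 of the 22 passed, and without LPS+oxAAT replicate 5102, 5 of the 17 CXCR3 ligands and interferon gamma genes.

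**Figure D3:**
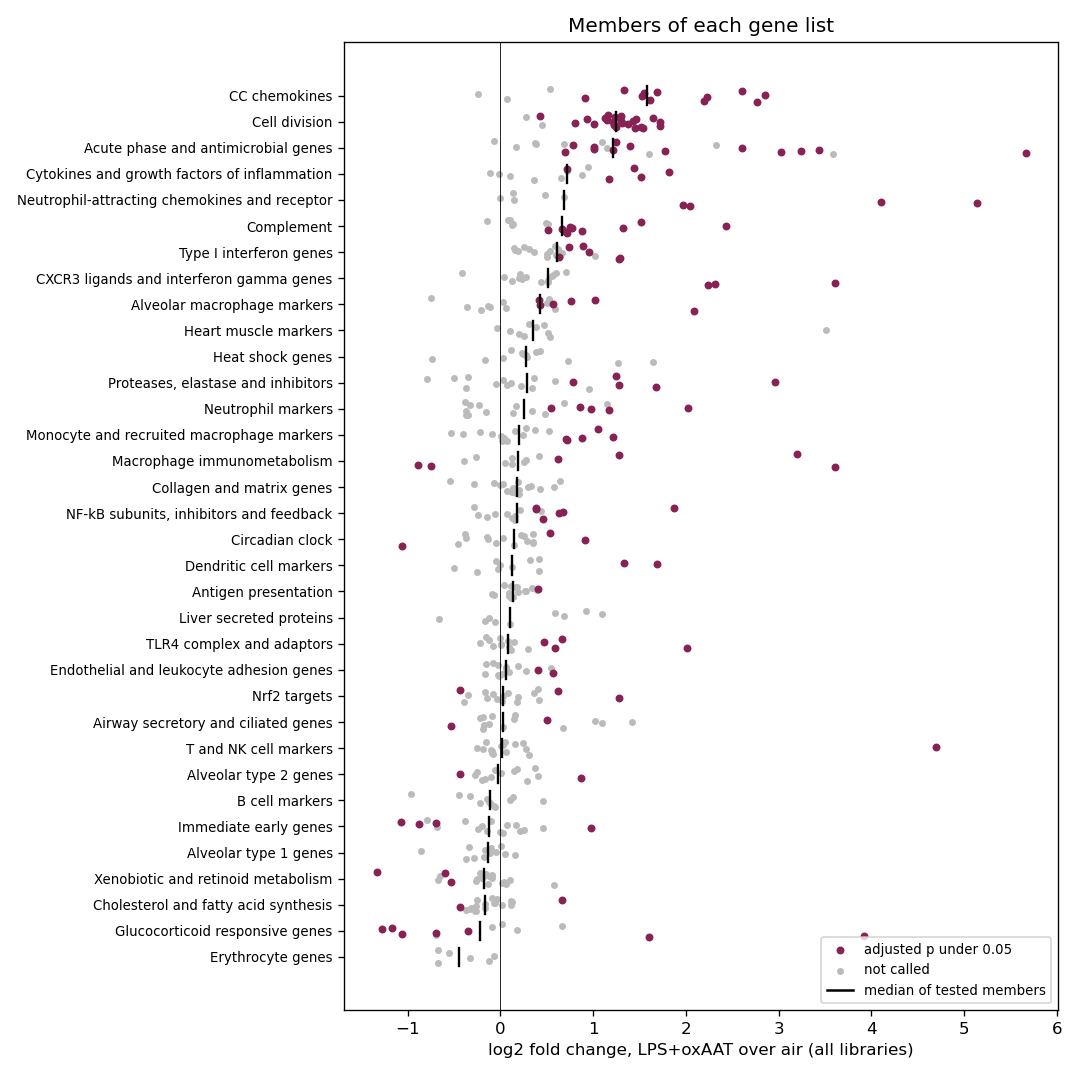
Each point is a tested member of a gene list, placed by its log2 fold change of LPS+oxAAT over air. Purple points have an adjusted p under 0.05 and black bars are medians, which run from −0.44 for erythrocyte genes to 1.58 for CC chemokines.

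The falls were smaller than the rises. Mfsd2a, a transporter of lysophosphatidylcholine, fell most among the genes named, from 7.4, 9.05 and 7.37 CPM in air to 2.28, 1.89, 2.11, 1.03 and 1.15 CPM in LPS+oxAAT. The change was −2.23 ± 0.34 on the log2 scale (adjusted p = 0.000137). Atp2b2, a calcium pump of the plasma membrane, changed by −1.25 ± 0.19 (adjusted p = 9.46e-05). Klf2, a transcription factor of quiescent endothelium, was 129, 149 and 169.9 CPM in air and 53.3, 79.8, 56.9, 61.1 and 104 CPM in LPS+oxAAT. Replicate 5105 was closest to air but still below it, and the log2 fold change was −1.07 ± 0.18 (adjusted p = 0.000301). Kcnj2, an inward rectifier potassium channel, changed by −1.03 ± 0.20 (adjusted p = 0.0024).

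Spry4 and Bambi were also among the largest falls. Spry4, an inhibitor of receptor tyrosine kinase signalling, was 50.7, 55.1 and 50.6 CPM in air and 19.7, 24.5, 29.4, 24.7 and 34.6 CPM in LPS+oxAAT, a log2 fold change of −0.97 ± 0.14 (adjusted p = 8.43e-05). Bambi, a pseudoreceptor that dampens TGF-beta signalling, was 29.4 to 41.5 CPM in air and 17.8 to 19.4 CPM in LPS+oxAAT, with a log2 fold change of −0.87 ± 0.13 (adjusted p = 8.43e-05). Csrnp1, a nuclear protein, and Greb1 also fell, by 1.45 and 0.98 on the log2 scale. Tmem252, Errfi1 and Per1 are described next.

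**Figure D4:**
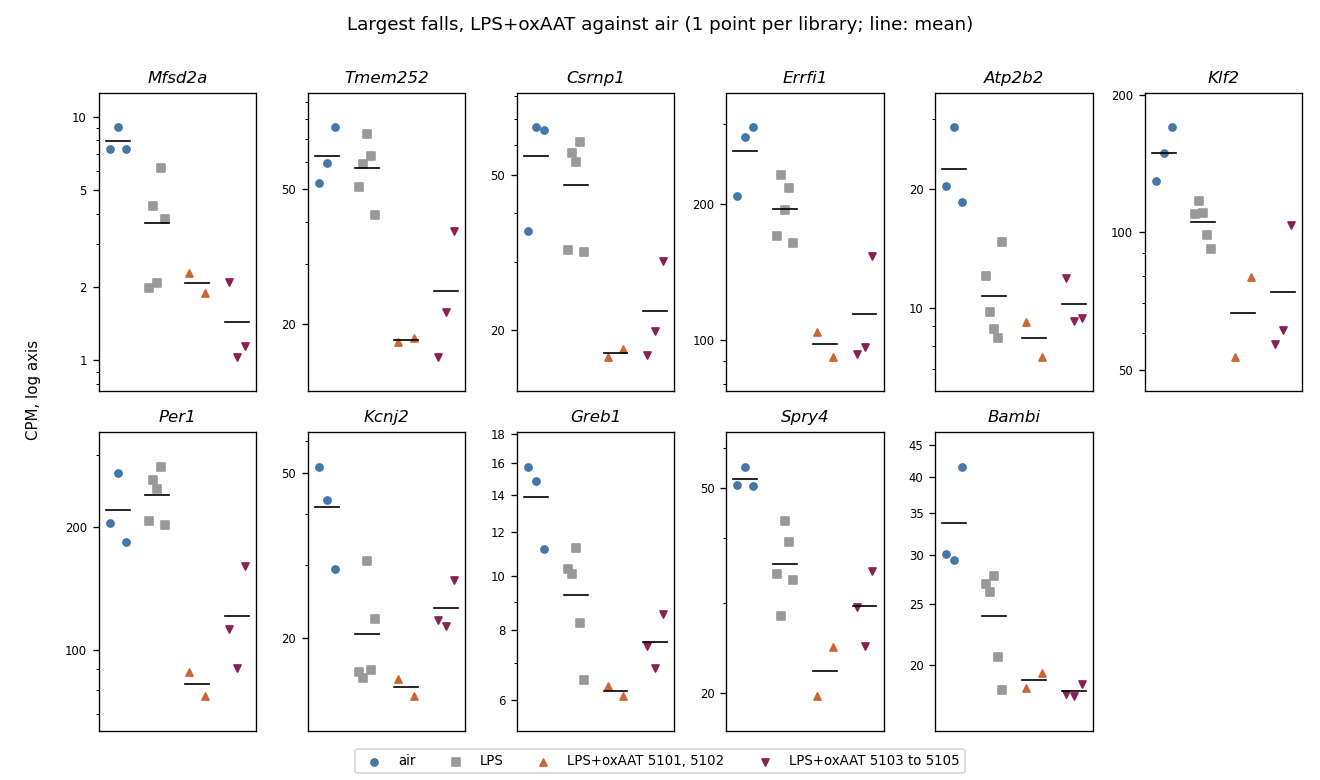
Points are the CPM of 1 library each on a log axis for 11 of the largest falls, and lines are means. By the rule of choice, each LPS+oxAAT library lies below each air library in every panel, as for Mfsd2a (1.03 to 2.28 CPM against 7.37 to 9.05 CPM). Replicate 5105 is the nearest to air for Tmem252 and Errfi1.

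To see which changes from air were not shared with LPS alone, LPS+oxAAT was also tested against the LPS group. This comparison called 808 of 17148 genes (4.71%), 676 higher (3.94%) and 132 lower (0.77%), but only 13 (0.0757%) when 5101 and 5102 were the only LPS+oxAAT libraries. All 5 LPS libraries had a low ratio, so with all libraries the split in mt-Nd6 ratio runs along with this comparison. The change from air and that from LPS share the LPS+oxAAT libraries. Of the genes called against air, 61 were also called against LPS. Among those called against both groups in both fits were Tmem252, Per1 and Errfi1, all lower in LPS+oxAAT.

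Per1, a clock gene that glucocorticoids also induce, was 205, 271 and 184 CPM in air and 207, 261, 249, 281 and 202 CPM in LPS. In LPS+oxAAT it was 88.5, 77.1, 113, 90.3 and 160.4 CPM. All 5 values lay below every air and LPS value, 5105 by the least. The change was −1.06 ± 0.21 against air (adjusted p = 0.00275) and −1.18 ± 0.19 against LPS (adjusted p = 0.00161). With 5101 and 5102 alone these were −1.40 and −1.54. Tmem252, a transmembrane protein, was 51.9, 59.4 and 75.7 CPM in air, 50.6, 59.3, 72.5, 62.5 and 42 CPM in LPS and 17.8, 18.2, 16, 21.7 and 37.5 CPM in LPS+oxAAT. Its log2 fold change was −1.49 ± 0.22 against air (adjusted p = 9.98e-05) and −1.37 ± 0.20 against LPS (adjusted p = 0.000769).

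Errfi1 codes for MIG6, a feedback inhibitor of the EGF receptor. It was 208, 282 and 296 CPM in air, 170.0, 232, 194, 217 and 164 CPM in LPS, and 105, 92, 93.5, 96.6 and 154 CPM in LPS+oxAAT. The log2 fold change was −1.28 ± 0.17 against air (adjusted p = 2.5e-05) and −0.86 ± 0.15 against LPS (adjusted p = 0.00376). Replicate 5105 was again the highest of its group, and still below the lowest air and LPS libraries. Errfi1 was the one gene among the 9 falls with a RefSeq window that held the cAMP response element TGACGTCA, which reads alike on both strands, and 1.79% of all windows hold it. The match, in capitals, lies in the second of its 2 windows (GRCm38.p6, plus strand).
Errfi1, chr4:150854820-150855119: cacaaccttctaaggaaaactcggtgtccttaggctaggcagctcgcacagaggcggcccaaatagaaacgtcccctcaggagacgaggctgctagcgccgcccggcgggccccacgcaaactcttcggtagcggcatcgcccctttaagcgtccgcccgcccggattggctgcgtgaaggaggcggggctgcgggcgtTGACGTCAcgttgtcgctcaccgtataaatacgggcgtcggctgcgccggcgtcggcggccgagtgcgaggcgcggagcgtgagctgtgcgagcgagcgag

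Glucocorticoid responsive genes were the list with the most falls: 5 of 12 fell (Per1, Dusp1, Sgk1, Errfi1 and Cebpd) and 2 rose (Fkbp5 and Zbtb16). The median was −0.22. The low-ratio fit called Fkbp5 as higher and Per1, Errfi1 and Tsc22d3 as lower, and without air replicate 2105 4 of the 12 passed. Dusp1, a phosphatase of MAP kinases, changed by −0.70 ± 0.17 (adjusted p = 0.0126) and was lost in both of these settings (adjusted p of 0.393 and 0.183). Fkbp5, a co-chaperone of the glucocorticoid receptor, was 14.4, 13.8 and 11.1 CPM in air and 30.6, 24.6, 50.9, 41 and 51.2 CPM in LPS+oxAAT. Zbtb16, a zinc finger repressor, was 10.3, 8.5 and 7.86 CPM in air and 102, 39.3, 223, 158 and 155 CPM in LPS+oxAAT. For both genes every LPS+oxAAT library lay above air, and replicates 5103 to 5105 lay above 5101 and 5102. The log2 fold change of Fkbp5 was 1.60 ± 0.33 (adjusted p = 0.00443) and 1.08 with 5101 and 5102 alone (adjusted p = 0.0301). That of Zbtb16 was 3.92 ± 0.80 (adjusted p = 0.00585) and 2.99 in the low-ratio fit, which did not call it (adjusted p = 0.112). Cebpd, a C/EBP family transcription factor, changed by −1.17 ± 0.25 (adjusted p = 0.00479) and did not pass in the low-ratio fit (adjusted p = 0.083) or without air replicate 2105.

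Against LPS, Zbtb16 was higher by 2.56 ± 0.60 (adjusted p = 0.0204), and Fkbp5 was not called (0.74 ± 0.26, adjusted p = 0.116). In the low-ratio fit neither differed from LPS past the threshold, with adjusted p-values of 0.918 for Zbtb16 and 0.999 for Fkbp5. The LPS+nAAT group, which received native AAT, had means of 70.6 ± 17.2 CPM for Fkbp5 and 206 ± 50.9 CPM for Zbtb16 (SD, n = 5). Its means were 160.1 ± 13.1 CPM for Per1, 33.4 ± 1.9 CPM for Tmem252 and 137 ± 14.9 CPM for Errfi1. For these last 3 genes the LPS+nAAT mean lay between the means of LPS and LPS+oxAAT, and LPS+oxAAT replicate 5105 lay above the LPS+nAAT mean. In the same fit of all libraries, LPS+nAAT was itself lower than air for Tmem252 (−0.90 ± 0.22, adjusted p = 0.012) and Errfi1 (−0.94 ± 0.17, adjusted p = 0.000797). Per1 was not called there (−0.46 ± 0.21, adjusted p = 0.263). LPS+oxAAT was not tested against LPS+nAAT.

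**Figure D5:**
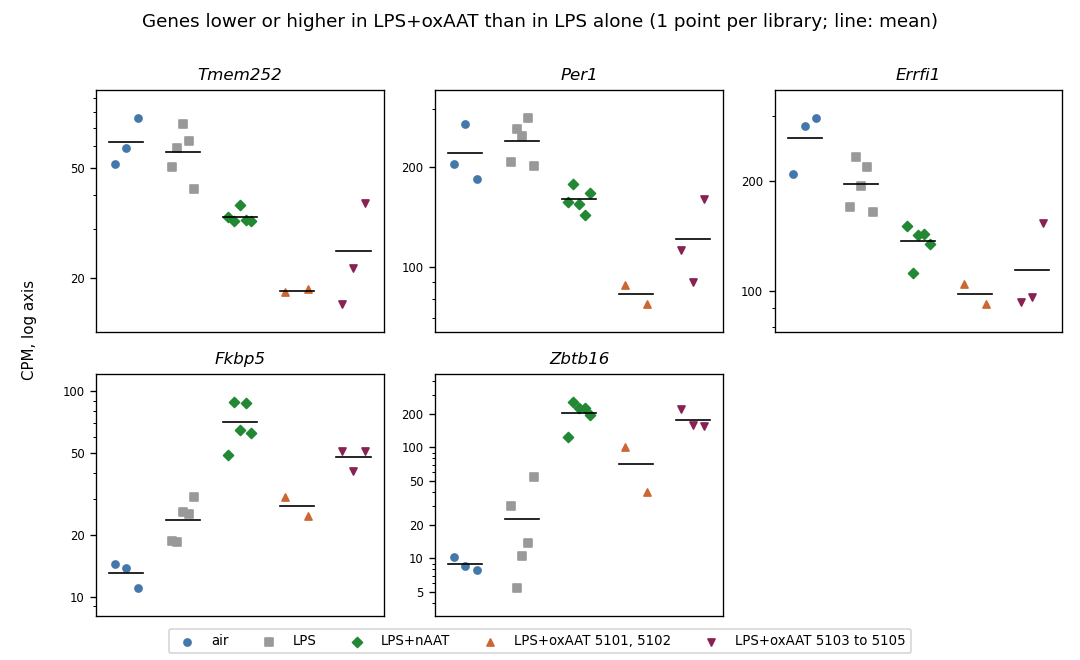
Points are the CPM of 1 library each on a log axis for 5 genes in air, LPS, LPS+nAAT and LPS+oxAAT, and lines are means. Tmem252, Per1 and Errfi1 are lower in each LPS+oxAAT library than in each air and LPS library, while Zbtb16 in LPS+oxAAT runs from 39.3 to 223 CPM and overlaps LPS.

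Of 17 clock genes, Per1 fell and Npas2 and Bhlhe41 rose, by 0.92 ± 0.26 (adjusted p = 0.0413) and 0.53 ± 0.13 (adjusted p = 0.0208). Of these 3, only Per1 passed in the low-ratio fit, which also called Bhlhe40, and 1 of the 17 passed without air replicate 2101 or 2105. Npas2 was also lost without air replicate 2102 and without LPS+oxAAT replicate 5101, 5104 or 5105, and Bhlhe41 without 5103. Of 18 tested immediate early genes, Klf2, Zfp36 and Dusp1 fell and Egr2 rose. Klf2 alone of these was also called in the low-ratio fit, where Egr2 had an adjusted p of 0.0609 and Klf4 was called as well. Without air replicate 2102, 2 of the 18 passed. Zfp36, which destabilizes cytokine mRNA, was 233, 302 and 361 CPM in air and 213, 175, 148, 138 and 138 CPM in LPS+oxAAT, a log2 fold change of −0.88 ± 0.16 (adjusted p = 0.000852). The groups did not overlap, but the low-ratio fit did not call it (adjusted p = 0.201).

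For most inflammatory genes described above, the test against LPS gave no call. Saa3 averaged 243 ± 54.7 CPM in LPS+oxAAT and 286 ± 88.6 CPM in LPS, a log2 difference of −0.23 (adjusted p = 0.541). Lcn2 averaged 1140.0 ± 74.6 and 1193 ± 191 CPM, a difference of −0.07 (adjusted p = 0.815), and Cd14 115 ± 15.4 and 134 ± 18.3 CPM, a difference of −0.23 (adjusted p = 0.316). Cxcl3 averaged 42.5 ± 18.1 and 36.1 ± 13.5 CPM (adjusted p = 0.731). These tests do not show the groups to be equal. No member of the neutrophil chemokine, CC chemokine, cytokine, acute phase or protease lists was called against LPS. Some other genes described here were called with all libraries. C3ar1 was higher (0.48, adjusted p = 0.0156), as were Bhlhe41 and Scd1. Nos2 (−0.51, adjusted p = 0.0371) and Cebpd (−1.22, adjusted p = 0.00427) were lower. So were Csrnp1 (−1.21, adjusted p = 0.00311), Zfp36 (−0.60, adjusted p = 0.015), Mfsd2a and Klf2. None of these genes was called against LPS in the low-ratio fit.

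The lists of lung epithelium genes had medians near 0, at −0.03 for alveolar type 2, −0.14 for alveolar type 1 and 0.03 for airway genes. Pigr and Cxcl5, which rose as described above, belong to other lists. Of 14 alveolar type 2 genes, Sftpd rose and Napsa fell, where 3.76% of all genes tested were called. Sftpd, the collectin surfactant protein D, was 1098, 897 and 1236 CPM in air and 1835, 1894, 1739, 2194 and 2157 CPM in LPS+oxAAT, a log2 fold change of 0.87 ± 0.11 (adjusted p = 1.67e-05). Napsa, the protease that processes surfactant protein B, changed by −0.44 ± 0.12 (adjusted p = 0.0426) and did not pass in the low-ratio fit (adjusted p = 0.486), without air replicate 2101 or 2105, or without LPS+oxAAT replicate 5101, 5103, 5104 or 5105. Sftpc, the defining surfactant protein gene, was −0.17 ± 0.14 (adjusted p = 0.675). None of 12 alveolar type 1 genes was called, and Ager, the receptor RAGE of these cells, was −0.38 ± 0.20 (adjusted p = 0.391). Of 15 airway genes, the mucin gene Muc1 rose by 0.51 ± 0.11 (adjusted p = 0.00526) and Cyp2f2 of club cells changed by −0.53 ± 0.15 (adjusted p = 0.0418). Neither was called in the low-ratio fit, with adjusted p-values of 0.0508 and 0.424, or without air replicate 2105. Cyp2f2 was also lost without air replicate 2102 and without LPS+oxAAT replicate 5102, 5103, 5104 or 5105. Scgb1a1, the main club cell secretory protein, was −0.19 ± 0.19 (adjusted p = 0.741).

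Of 20 genes of xenobiotic and retinoid metabolism, 3 fell and none rose. Over all genes tested, 1.04% were called lower and 2.72% higher, which is the background for the counts in this paragraph. Ces1f, a carboxylesterase, was 13.6, 18.2 and 11.2 CPM in air and 7.56, 2.76, 4.95, 7.6 and 5.71 CPM in LPS+oxAAT, a log2 fold change of −1.33 ± 0.26 (adjusted p = 0.00229). It did not pass in the low-ratio fit (adjusted p = 0.0667), where 1 of the 20 did, and without air replicate 2102 also 1 passed. Aox3, an aldehyde oxidase, changed by −0.60 ± 0.13 (adjusted p = 0.00773) and was called in both fits. Cat, the catalase gene of the Nrf2 list, changed by −0.44 ± 0.10 (adjusted p = 0.00863), also in both. Of 19 tested genes of cholesterol and fatty acid synthesis, Scd1, a fatty acid desaturase, rose by 0.67 ± 0.12 (adjusted p = 0.000589) and Fdft1, squalene synthase, changed by −0.44 ± 0.12 (adjusted p = 0.0426). Neither was called in the low-ratio fit, which called Hmgcs1. Fdft1 was also lost without any of the air libraries or of LPS+oxAAT replicates 5101, 5103, 5104 and 5105, each left out alone.

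The small counts of the next lists stand beside 3.76% called over all genes tested. Of 17 antigen presentation genes, Tapbp, the peptide loading protein tapasin, alone rose, by 0.41 ± 0.10 (adjusted p = 0.017), and not in the low-ratio fit (adjusted p = 0.257) or without air replicate 2102 or 2105. Of 15 endothelial and adhesion genes, Car4 and Vcam1 rose, by 0.57 ± 0.11 (adjusted p = 0.0013) and 0.40 ± 0.11 (adjusted p = 0.0451). Car4 was also called in the low-ratio fit, and Vcam1 was not (adjusted p = 0.668), nor was Vcam1 without any of the 3 air libraries or of replicates 5103 to 5105, each left out alone. Of 11 dendritic cell markers, the chemokines Ccl17 and Ccl22 were called. With all libraries no member was called among 18 collagen and matrix genes, 12 B cell markers, 13 heat shock genes, 10 heart muscle, 9 liver and 6 erythrocyte genes. In the low-ratio fit the B cell marker Fcer2a was called (log2 fold change 0.85, adjusted p = 0.0263).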

How the data were processed

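RNA-seq of mouse lung was analysed from gene counts that the authors deposited with no normalization. Per the labels' protocols the kit was a stranded one for poly(A) RNA, and the submitters' processing notes name FastQC 0.11.8, Trimmomatic 0.38 and 0.36, STAR 2.4.0.1, HTSeq 0.11.1 and GRCm38. For the strand setting of the counting, and for its annotation, the sources used here give nothing. The table held 41388 genes, and its 5 summary lines were dropped. In the 8 libraries 7.99% to 10.32% of tallied reads fell on no feature, 1.12% to 1.21% were ambiguous and 4.8% to 5.35% were not unique. GENCODE M21 (GRCm38) named 40340 genes.

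All 23 libraries were fitted with edgeR 4.0.16 in R 4.3.3 (quasi-likelihood F test, two-sided, TMM, filterByExpr by group, robust dispersions, 1 mean per group). P-values were Benjamini-Hochberg adjusted over all genes tested. They set differences between group means against the spread among libraries within groups, each library being 1 mouse. Within LPS+oxAAT that spread also holds the mt-Nd6 split. CPM values are TMM-scaled, and SEs were derived from fold changes and F statistics. A simulation drew counts for the 5 LPS+oxAAT and 3 air libraries alone and fitted them as 2 groups. Its changed genes were well counted, and its spread followed the trend over genes, with no mt-Nd6 split. Over its 17148 genes, 49 of 50 changed 2-fold and 27 of 50 changed 1.5-fold were called, with 12 of 16948 unchanged genes. These rates do not describe the fit of all 23 libraries.

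Genes named as largest changes were the 12 per direction called with all and with low-ratio libraries, with average log2 CPM of at least 1, groups that did not overlap and not merely a predicted gene symbol. Up to 4 members of smallest adjusted p in each of 34 lists, a fixed panel and up to 4 genes per direction that also differed from LPS were added, 153 genes in all; 1 further gene is not reported here. Other members behind a count were named after their values were seen. Some genes stand in more than 1 list, so counts of different lists are not separate results. Slpi and Serpina3n are in the acute phase and protease lists, and Car4 is in the alveolar macrophage and endothelial lists. The comparison, the lists and the mt-Nd6 split were chosen with earlier results of these data known. Replicates share last digits of the mouse number, but deviations of same-digit mice were not positively correlated (r of −0.13, −0.38 and −0.00), so no block was used. Alternatives were DESeq2 1.42.0, limma 3.58.1 voom, other scalings and filters, and fits without single libraries.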

Additional observations from a re-analysis of the deposited data

Results flagged for a closer look

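Among the 153 genes named by the rules given above, 14 (9.15%) had 1 LPS+oxAAT library far from the other 4. The cut-off flags about 1 in 20 groups of independent, normally distributed values. CPM values of genes chosen by rule need not behave so, and the 9.15% is not read as an excess. In 9 of the 14 genes the library set apart was replicate 5105, which was high. Its CPM was 37.5 for Tmem252, 30.2 for Csrnp1, 154 for Errfi1, 39.5 for Mki67, 61 for Ifit1 and 44.4 for Cmpk2. The heat shock genes Hspa1a, Hspa1b and Hspd1 were at 18.1, 30.4 and 210.0 CPM in the same library, where the other 4 ran from 1.39 to 2.33 CPM for Hspa1a and from 1.63 to 2.4 CPM for Hspa1b. Hspa1a and Hspa1b are near-identical copies whose reads may be shared, so they need not be separate observations. The summed level of 13 heat shock genes was 1542 to 3909.8 CPM over the LPS+oxAAT libraries and 1694 to 2110.4 CPM in air. Their part in the levels of the other genes of 5105 was not tested. Tmem252, Csrnp1, Errfi1, Mki67 and Ifit1 were also called without 5105.

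In replicate 5102 Pigr was low, at 339 CPM, and Ighm was high, at 186 CPM. In replicate 5103 Irak3 and Col14a1 were high, at 17.2 and 69.9 CPM. In replicate 5101 Nppa, a heart muscle gene, was at 0.6 CPM (15 counts, against 0 to 4 in the other LPS+oxAAT libraries). Myh6, also of heart muscle, was highest in the same library, at 334 CPM.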

How the results depend on the processing

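Called genes against air numbered 645. They were 1323 with limma voom, 977 with 5103 to 5105 as the only LPS+oxAAT libraries, 372 at an adjusted p under 0.01, 414 from the 2 groups alone, 336 with the mt-Nd6 split as a term, 251 in low-ratio libraries and 113 in those of the 2 groups alone. DESeq2's Wald test called 849. Leaving out each library gave 392 (without air replicate 2105) to 785. Against LPS 808 were called: 1258 with DESeq2, 1688 with voom, 2369 with 5103 to 5105 only, 372 with the GC curve removed, 154 at an adjusted p under 0.01, 15 from the 2 groups alone, 13 in low-ratio libraries, 6 with the split as a term and 2 in low-ratio libraries of the 2 groups. Leaving out single libraries gave 167 to 1881, with 388 without LPS replicate 1101, 234 without 1102, 305 without 1104, 1552 without 1105, 1881 without 5102, 167 without 5103, 342 without 5104 and 416 without 5105. The cause was not tested. With the last digit as a replicate block, 649 genes were called against air and 1167 against LPS.

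Of 99 named genes called against air, 48 stayed called under every alternative run, including 22 of the 23 largest changes described. The exception was Bambi, with an adjusted p of 0.107 in low-ratio libraries of the 2 groups. The 23 had been chosen as called in the low-ratio fit. Passing that alternative was therefore fixed in advance, and passing related ones was favoured. Against LPS, Per1 and Tmem252 were called throughout, while Errfi1 was lost in 3 (adjusted p of 0.0538, 0.124 and 0.173). These genes had also been chosen as called against LPS in the low-ratio fit. Genes that changed sign were not called in those settings. Tlr4 was −0.31 with the split as a term, −0.29 in low-ratio libraries, −0.30 in those of the 2 groups and −0.10 with the block. Hspa1b was −0.14, −0.13 and −0.14 in the first 3 of these and −0.23 (without 5105) to 1.91 without single libraries, and Hspa1a −0.12 (without 5105) to 1.50. Fcrla was 0.01 in low-ratio libraries and 0.00 in those of the 2 groups. Without single libraries Sftpc ran from −0.28 to 0.04 (without 2105), Hspb1 from −1.09 to 0.23 (without 2101), and, each lowest without 5101, Myh6 from −0.00 to 1.58, Tnnt2 from −0.00 to 1.41 and Ryr2 from −0.09 to 1.06. Ryr2 was −0.04 with the block. Depth limits genes of few counts, such as Il6, Cxcl11, Gpr84 and Lemd1.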
